A study of Caenorhabditis elegans with 2 samples.

Results

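Of the 20876 candidate regions called on both replicates pooled, the 5000 with the highest signal held 908 autosomal regions centred in introns of protein-coding genes. A region was counted when its summit, the middle of its 340 bp, lay in a protein-coding gene body on chromosomes I to V, in no exon of such a gene, and away from starts of transcription. The excluded window around each transcription start site (TSS) of a protein-coding transcript in the Ensembl WBcel235 annotation began 1000 bp before it and ended 500 bp after it. Only the summit was placed in this way, so the region around it could still reach an exon, and 44.8% of the 908 regions held some exonic bases. The regions came from chromatin immunoprecipitation with sequencing (ChIP-seq) of eGFP-tagged NHR-28 in whole Caenorhabditis elegans larvae of the L3 stage. Both samples were of strain OP317, genotype unc-119(ed3) III and wgIs317, with males and females pooled. They were labelled as 2 biological replicates from separate biosamples of 1 group, and a control genotype or treatment was not analysed here. The labels give neither the cells in which the tagged protein was made nor whether the chromosomal copy of nhr-28 was intact, and a pool of whole animals cannot tell a weak site in many cells from a strong site in few. A library of this kind cannot be checked against cell type markers.

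NHR-28 belongs to the nuclear hormone receptors, DNA-binding proteins with a zinc finger domain and, in most members, a pocket for a small lipophilic ligand. The family is much larger in nematodes than in other animals, and many of its members resemble the vertebrate receptor HNF4. Receptors of this kind often recognise variants of the half-site AGGTCA, alone or in pairs. Introns of C. elegans are mostly short, but long introns, above all near the 5′ end of a gene, are known to hold enhancers, start sites of shorter transcripts and small RNA genes. A deposited list of candidates before any reproducibility filter holds both peaks and background regions, by its own description.

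The 200 bp around the summits of 10 regions are shown because they carry the sequence features described further on. They comprise, from chromosomes II to V, the 6 strongest regions, the strongest pair with AGGTCA within the 200 bp and the strongest pair with TGATAAGA within the 200 bp. All are RefSeq sequence of the WBcel235 assembly, which is ce11, read 5′ to 3′ on the strand of the host gene. The first 6 are Y111B2A.12 (chrIII:12612575-12612774, plus strand), F58G1.7 (chrII:12944657-12944856, minus strand), epg-9 (chrIV:2602084-2602283, plus strand), pqn-41 (chrIII:1925291-1925490, plus strand), Y43F8B.2 (chrV:19529302-19529501, minus strand) and frm-7 (chrV:12303569-12303768, plus strand). The others are pck-1 (chrIII:64351-64550, minus strand), lit-1 (chrIII:13720993-13721192, plus strand), pkg-2 (chrIV:8527759-8527958, plus strand) and Y62E10A.13 (chrIV:13393576-13393775, minus strand). The windows of F58G1.7 and frm-7 reached 99 and 31 bases into coding exons, and the other windows were intronic throughout. Capitals mark matches on either strand to CTGCGTCTC, a sequence known from C. elegans sites that many factors occupy, to the GA repeat GAGAGAGA, to the half-site AGGTCA, to GGTTCGA, and to TGATAAGA, an extended form of the site of GATA factors.
Y111B2A.12: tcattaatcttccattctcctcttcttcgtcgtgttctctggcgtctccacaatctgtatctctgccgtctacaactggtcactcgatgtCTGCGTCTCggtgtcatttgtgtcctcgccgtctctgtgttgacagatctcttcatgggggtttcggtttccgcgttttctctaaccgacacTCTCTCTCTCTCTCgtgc
F58G1.7: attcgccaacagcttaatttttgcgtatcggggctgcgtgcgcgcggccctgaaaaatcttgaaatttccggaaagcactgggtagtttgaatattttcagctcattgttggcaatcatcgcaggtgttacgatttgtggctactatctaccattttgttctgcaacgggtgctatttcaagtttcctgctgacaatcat
epg-9: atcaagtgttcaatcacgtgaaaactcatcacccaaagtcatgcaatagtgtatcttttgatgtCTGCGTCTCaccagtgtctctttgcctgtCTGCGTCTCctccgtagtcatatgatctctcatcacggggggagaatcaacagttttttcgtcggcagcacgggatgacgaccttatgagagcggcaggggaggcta
pqn-41: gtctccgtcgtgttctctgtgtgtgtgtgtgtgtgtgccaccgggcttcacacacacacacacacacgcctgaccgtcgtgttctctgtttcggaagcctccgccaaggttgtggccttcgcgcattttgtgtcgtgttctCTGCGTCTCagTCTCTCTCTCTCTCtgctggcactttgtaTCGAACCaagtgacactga
Y43F8B.2: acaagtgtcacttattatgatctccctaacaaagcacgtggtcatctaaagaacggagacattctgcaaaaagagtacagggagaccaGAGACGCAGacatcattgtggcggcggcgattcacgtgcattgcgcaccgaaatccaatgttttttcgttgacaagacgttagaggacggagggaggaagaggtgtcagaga
frm-7: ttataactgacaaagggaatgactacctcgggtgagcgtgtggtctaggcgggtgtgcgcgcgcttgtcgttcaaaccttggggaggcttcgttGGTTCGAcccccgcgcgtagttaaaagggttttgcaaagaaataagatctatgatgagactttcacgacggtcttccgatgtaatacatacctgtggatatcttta
pck-1: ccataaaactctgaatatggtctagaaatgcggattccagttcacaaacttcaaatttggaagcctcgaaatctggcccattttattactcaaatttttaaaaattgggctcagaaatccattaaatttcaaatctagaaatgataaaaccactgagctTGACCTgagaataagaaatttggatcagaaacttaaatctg
lit-1: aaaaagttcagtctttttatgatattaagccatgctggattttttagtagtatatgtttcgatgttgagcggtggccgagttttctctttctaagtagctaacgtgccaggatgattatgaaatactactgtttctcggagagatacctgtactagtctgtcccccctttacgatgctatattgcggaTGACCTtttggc
pkg-2: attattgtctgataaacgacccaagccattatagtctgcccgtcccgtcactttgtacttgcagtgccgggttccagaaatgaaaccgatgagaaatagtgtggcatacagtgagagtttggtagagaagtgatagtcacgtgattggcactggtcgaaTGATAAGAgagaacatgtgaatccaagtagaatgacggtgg
Y62E10A.13: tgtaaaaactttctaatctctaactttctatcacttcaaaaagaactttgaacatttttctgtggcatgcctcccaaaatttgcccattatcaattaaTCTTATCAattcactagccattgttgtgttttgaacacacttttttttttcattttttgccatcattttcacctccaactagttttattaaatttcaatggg
In epg-9, CTGCGTCTC occurred 2 times within the window, and in pqn-41 it stood next to a GA repeat that read as TCTCTC on the strand of the host. The window of F58G1.7 held none of the 5 marked motifs.

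Intron regions became a larger share of the candidates down the ranking. They made up 22.6% of the 4022 autosomal regions in the first 5000 (exact binomial 95% interval 21.3 to 23.9%), close to the 24.4% of autosomal bases that were eligible by the same rule (20.1 of 82.6 Mb). Among ranks 1 to 500 the share was 15.1% (60 of 397), among ranks 501 to 1000 it was 20.2% (79 regions), among ranks 1001 to 2500 23.6% (281) and among ranks 2501 to 5000 23.9% (488). After rank 5000 it was 26.8% (3492 of 13012). The interval of the strongest 500, 11.7 to 19.02%, lay below that of the regions after rank 5000, 26.1 to 27.6%. The intervals here and elsewhere cover the counting of regions only: regions are not replicates, and the lists hold no read counts, so the depth behind each region is unknown.

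**Figure D1:**
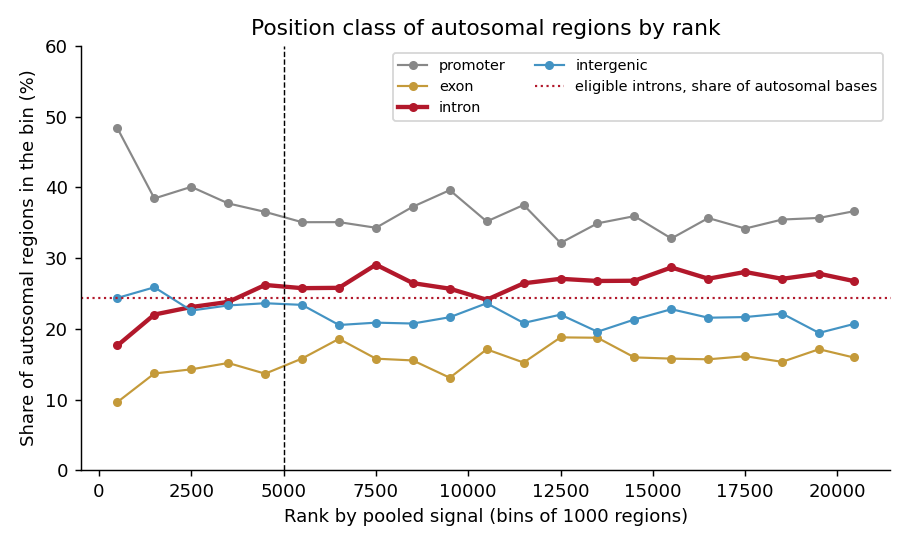
Share of autosomal candidate regions (%) in promoters, exons, introns and between genes, in bins of 1000 regions by rank of pooled signal; the dotted line is the eligible intron share of autosomal bases and the dashed line marks rank 5000. The intron share was 17.6% in the first bin, below the 24.4% of bases, and the promoter share was highest there at 48.4%.

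The pooled signal, which chose the regions and is given here without a test, had a median of 17.8 in the deposited unit (quartiles 16.5 and 19.9, range 15.7 to 73.6). Its scale is not given in the sources used here. Most of these regions were weak: 223 had a signal above 20 and 29 above 30. The deposited q, the estimated false discovery rate, had a median of 0.588 and was at or below 0.05 for 36 regions (3.96%), against 6.12% of all first 5000. The share was 8.91% for autosomal promoter regions, 4.47% for intergenic, 2.24% for exon and 5.19% for X intron regions. The edge of the ranking cut through a continuum. Just inside rank 5000 lay regions in F59A1.11 (signal 15.709, rank 4970), W05H12.1 (15.706, rank 4973) and pptr-1 (15.699, rank 4978). Just outside lay regions in nhr-74 (15.670, rank 5012), C55A6.3 (15.663, rank 5020) and pde-2 (15.663, rank 5021).

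The authors' final set, kept by the irreproducible discovery rate (a measure of how well the ranks of 2 replicates match), held 162 regions, 3.24% of the first 5000. It kept 16 of the 908 intron regions, or 1.76% (1.01 to 2.85%). It kept 5.14% of the autosomal promoter regions, 1.12% of the exon regions, 2.28% of the intergenic regions and 2.16% of the 231 intron regions on the X chromosome. The set was selected on the same signal, so these shares describe the selection.

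The strongest intron region lay in intron 4 of Y111B2A.12, an intron of 7076 bp, 3386 bp downstream of the nearest TSS. Its pooled signal was 73.6 (rank 22), its signal was 22.95 in replicate 1 and 51.9 in replicate 2, and it ranked 35 and 19 among the nuclear regions of those lists. The second lay in F58G1.7, in an intron of 431 bp that also holds sup-6, annotated as an snRNA gene, with a signal of 61.8 pooled, 21.6 in replicate 1 and 42.01 in replicate 2. Both regions were near the top of all 3 rankings. The region in epg-9, a gene of the autophagy machinery, had signals of 53.6 pooled, 16.3 in replicate 1 and 37.5 in replicate 2. The region in pqn-41, which encodes a glutamine-rich protein, had 47.1 pooled, 14.1 in replicate 1 and 29.05 in replicate 2. That in Y43F8B.2, in an intron of 8604 bp, had 44.1 pooled, 13.6 in replicate 1 and 30.4 in replicate 2. These 5 led the intron regions in pooled signal, and each had the larger value in replicate 2, whose regions overlapping the 908 had a median signal of 12.7 against 6.82 in replicate 1.

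In frm-7, a gene for a FERM-domain protein, the region covered the snoRNA genes C51F7.3 and C51F7.4 in an intron of 267 bp. Its signals were 42.9 pooled, 18.5 in replicate 1 (rank 65) and 23.7 in replicate 2 (rank 142). In pxn-1, which encodes peroxidasin, an enzyme of the extracellular matrix, the region covered the snoRNA gene ZK994.7 in intron 17, with signals of 39.1 pooled, 10.6 in replicate 1 (rank 994) and 25.6 in replicate 2 (rank 112). The region in the first intron of vhp-1, a phosphatase of MAP kinases, overlapped the annotated antisense RNA gene anr-54, with signals of 39.0 pooled, 19.3 in replicate 1 (rank 54) and 19.9 in replicate 2 (rank 317). The strand of the ChIP reads carries no information on which gene is meant, so a region in a host gene and a region at the small RNA gene within it cannot be told apart.

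The remaining strong regions lay in kinase, metabolic and other genes. The region in pkg-2, which encodes a cGMP-dependent protein kinase, had signals of 37.6 pooled, 20.03 in replicate 1 (rank 47) and 17.6 in replicate 2 (rank 601). In aakg-1, a gamma subunit of AMP-activated protein kinase, the region lay in a first intron of 11917 bp with 33.7 pooled, 12.5 in replicate 1 and 19.1 in replicate 2, at rank 375 in each. In mnk-1, a kinase acting downstream of MAP kinases, it had 33.7 pooled, 13.2 in replicate 1 and 25.7 in replicate 2. The region in pkg-2 had the larger value in replicate 1, and those in aakg-1 and mnk-1 in replicate 2. Values over the 908 ran higher in replicate 2 (median 12.7 against 6.82). By rank, pkg-2 stood higher in replicate 1, mnk-1 in replicate 2 (285 in replicate 1, 110 in replicate 2), and aakg-1 in neither. The hexokinase gene hxk-1 held a region of 35.2 pooled, 15.99 in replicate 1 and 18.4 in replicate 2. The region in pck-1, which encodes phosphoenolpyruvate carboxykinase, the enzyme that commits carbon to gluconeogenesis, had 33.1 pooled, 9.48 in replicate 1 (rank 1735) and 23.3 in replicate 2 (rank 150). That in Y62E10A.13 had 35.1 pooled, 15.4 in replicate 1 and 20.4 in replicate 2. The last pair stood apart in sequence: the regions in nuaf-1, named for an assembly factor of respiratory complex I, and usp-39, a gene of the ubiquitin protease family, had GC contents of 24.1 and 28.5%. They were also the lowest of the 16 in replicate 1, at 7.91 (rank 4095) and 7.83 (rank 4289), against 26.1 (rank 106) and 26.7 (rank 101) in replicate 2.

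Across the 16, the rank in replicate 1 had a median of 169.5 (35 to 4289) and that in replicate 2 a median of 111 (19 to 601). The final set was kept for matching ranks in the 2 replicates, so the closeness of these ranks follows from the selection. Among the 892 intron regions outside it, both replicates overlapped 537 (60.2%). Of the 908 regions, 607 (66.9%) were overlapped by at least 1 bp by a region of replicate 1 and 853 (93.9%) by one of replicate 2. Both replicates overlapped 553 (60.9%, interval 57.6 to 64.1%), against 65.7% of all first 5000 regions. Among the autosomal classes this share was 68.9% for promoters, 61.5% for exons and 66.5% for intergenic regions, and it was 25.8% for the intron regions ranked after 5000. Replicate 1 alone overlapped 54 regions, replicate 2 alone 300, and 1 region was overlapped by neither. The pooled list is made from the same reads as the replicates, so this overlap is no independent support.

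The overlap was tied to rank. It was 90% for the 60 regions of ranks 1 to 500, 72.2% for ranks 501 to 1000, 65.5% for ranks 1001 to 2500 and 52.9% for ranks 2501 to 5000. The 5000 strongest nuclear regions of both lists overlapped 89 of the 908 (9.80%), against 12.7% of all first 5000, 14.98% of autosomal promoter, 8.79% of exon and 12.3% of intergenic regions. Over the 553 regions found in both, the replicate signals had a Spearman rho of -0.10 and a Pearson r of 0.08 on log2 values, and rho was 0.17 over ranks 1 to 500 (54 regions), -0.45 over ranks 501 to 1000 (57), -0.49 over ranks 1001 to 2500 (184) and -0.38 over ranks 2501 to 5000 (258). The regions were selected on the pooled signal, and a region weak in 1 replicate could enter the first 5000 when it was strong in the other. How far this selection set the correlations was not tested.

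**Figure D2:**
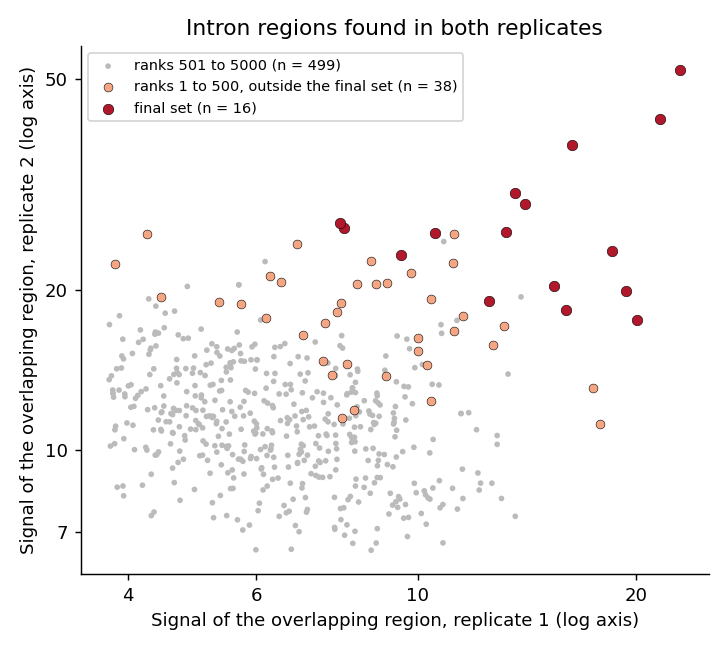
Signal of the region overlapping each intron region in replicate 1 (horizontal) and replicate 2 (vertical), both on log axes, for the 553 regions found in both lists; colours separate the final set, the rest of ranks 1 to 500 and lower ranks. The 16 regions of the final set lie between 7.83 and 22.95 in replicate 1 and between 17.6 and 51.9 in replicate 2.

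Along the chromosomes, intron regions were denser in the centre. Over all 5 autosomes there were 45.1 regions per Mb of eligible intron, from 38.7 on chromosome I (176 regions) and 40.1 on V (165) to 50.5 on III (206) and 51.7 on IV (210). With each chromosome cut into 3 parts of equal length, the density was 39.2 per Mb in the left part, 58.3 in the centre and 42.05 in the right part. The centre was the densest part on each of the 5 chromosomes. Intron regions ranked after 5000 had 160, 189 and 177 per Mb in the same parts, and were densest in the centre on I, II, III and V but not on IV. The first 5000 regions thus showed a steeper difference between centre and ends than the lower ranks: the ratio of their density to that of lower-ranked regions was 0.31 in the centre, 0.25 in the left part and 0.24 in the right part.

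**Figure D3:**
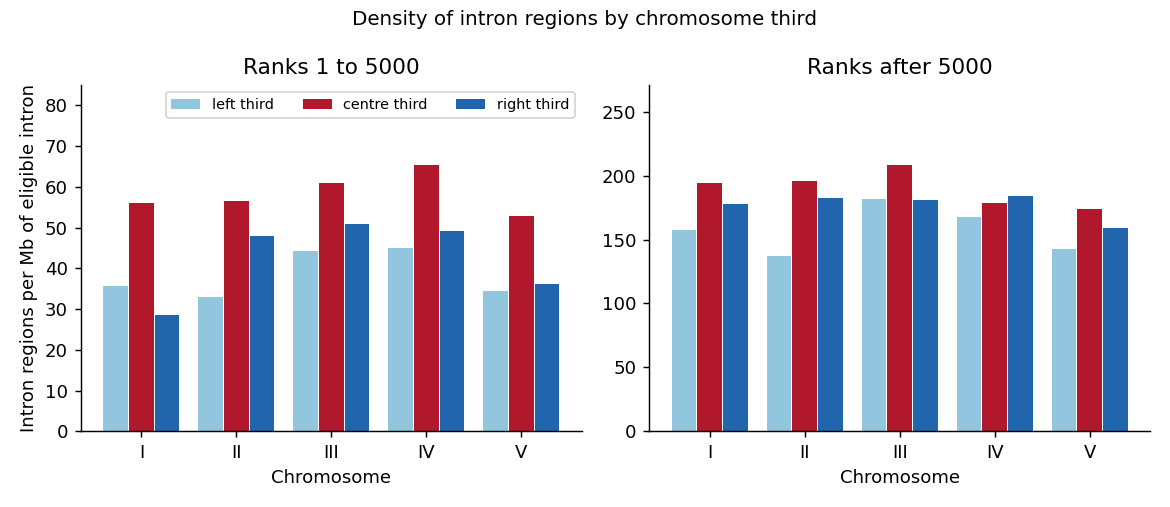
Density of intron regions (regions per Mb of eligible intron) by chromosome and by its left, central and right part, for the first 5000 (left panel) and for regions ranked after 5000 (right panel). The central bar is the tallest on each chromosome in the left panel, from 52.8 on V to 65.4 on IV.

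Host introns had a median length of 905 bp. Density did not move one way with intron length: it was 39.5 per Mb in introns of up to 200 bp, 53.4 at 201 to 500 bp, 52.3 at 501 to 1000 bp, 35.9 at 1001 to 3000 bp, 46.7 at 3001 to 10000 bp and 47.9 above that. Of the 16 regions of the final set, 8 lay in introns of 3001 to 10000 bp, a class with 18.2% of the 908 regions. First introns held 229 regions (25.2%, interval 22.4 to 28.2%) against 22.4% of eligible bases. The share was 31.7% among ranks 1 to 500, 24.8% among ranks 501 to 5000 and 21.96% after rank 5000, and the interval of the strongest 60, 20.3 to 44.96%, included all of these values.

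The nearest TSS lay a median of 1769 bp away and belonged to the host gene for 80.8% of the regions. A subset sat upstream of an internal start site of its own host. Regions 1001 to 3000 bp upstream of a later TSS of the host made up 11 of the 60 in ranks 1 to 500 (18.3%, 9.52 to 30.4%), 7.19% of ranks 501 to 5000 and 8.19% after rank 5000. They included 5 of the 16 in the final set: vhp-1 (1157 bp upstream), hxk-1 (1613 bp), Y62E10A.13 (1010 bp), aakg-1 (1744 bp) and pqn-41 (2280 bp). For these 5 genes the region is intronic for the longest transcripts and 5′ flanking sequence for shorter ones. With a promoter window of 2000 bp upstream, the first 4 would have been counted as promoter regions.

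The strongest intron regions were richer in G and C than the rest. The median GC content was 32.4% over the 908 regions (interval of the median 32.1 to 32.9%), 36.6% in ranks 1 to 500 (31.8 to 39.1%), 41.2% in the final set (36.2 to 44.7%) and 31.8% after rank 5000. Eligible intron sequence as a whole had 32.0%. A GC content of 40% or more was found in 35.0% of ranks 1 to 500, 12.03% of ranks 501 to 5000 and 9.85% after rank 5000. This was no property of introns alone, since promoter and intergenic regions of ranks 1 to 500 had medians of 36.5 and 36.6%. After rank 5000 their medians were 33.5 and 32.1%. Exon regions went the other way, with 34.7% in ranks 1 to 500 (31 regions) and 36.5% after rank 5000. Over all 908 regions the rank correlation of GC content with signal was weak (rho 0.11), and ChIP signal can itself depend on base composition; whether it did so here was not tested. Bases soft-masked in the RefSeq sequence as repeats or low complexity had a median share of 27.2% in ranks 1 to 500, 43.8% over the 908 regions and 49.7% after rank 5000, against 55.1% of eligible intron sequence.

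The difference in GC content between the strongest regions and the rest was largest near the summit. In ranks 1 to 500 the mean GC content was 38.6% in the bin from 50 to 0 bp before the summit, against 30.9% in ranks 501 to 5000 and 30.2% after rank 5000. Exons enter the flanks more than the summit, so the comparison was repeated without exonic bases. The values in that bin were then 38.5, 30.2 and 29.6%. In the bin from 0 to 50 bp after the summit they were 35.4, 29.8 and 29.4%. About 1 kb before the summit they were 34.5, 32.2 and 32.1%, and about 1 kb after it 34.96, 32.2 and 31.95%. The gap was thus smaller but still present at 1 kb. Set against the bin before the summit, the strongest regions were lower there and the others higher. Set against the bin after it, the others were higher at 1 kb and the strongest regions differed little (35.4 against 34.5 and 34.96%).

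**Figure D4:**
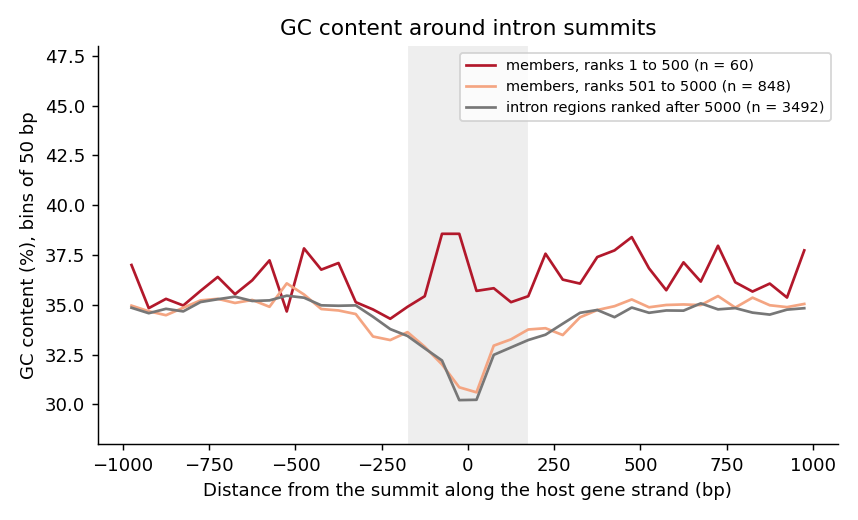
Mean GC content (%) in bins of 50 bp against distance from the summit (bp, along the strand of the host gene) for regions of ranks 1 to 500, ranks 501 to 5000 and after 5000; the grey band is the region itself. In the 50 bp before the summit the strongest regions reach 38.6% where the others dip to 30.9 and 30.2%. In the 50 bp after it the values are 35.7, 30.6 and 30.2%.

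Small RNA genes were found inside some of the regions. Of the 908, 22 (2.42%, interval 1.52 to 3.65%) overlapped a snoRNA gene (8 regions), an snRNA gene (6) or a tRNA gene (8), and none overlapped a miRNA gene (0%, upper bound 0.405%). Small nucleolar RNAs guide chemical modification of other RNAs, small nuclear RNAs act in splicing, and snRNA genes have compact promoters of their own. The share was 11.7% in ranks 1 to 500 (7 of 60, interval 4.82 to 22.6%), 1.77% in ranks 501 to 5000 and 0.83% after rank 5000. It was 3 of 16 in the final set, and these 3 were the regions in F58G1.7, frm-7 and pxn-1.

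The strongest snRNA regions were those at sup-6 in F58G1.7, already described, and a region at a gene named R07E5.16 in dhc-4, which encodes a dynein heavy chain (signal 31.7 pooled, 10.4 in replicate 1, 19.2 in replicate 2). The name R07E5.16 is carried by several annotated copies, so reads could be divided among them. A second sup-6 region of 30.1 overlapped the first and matched the same replicate regions, so the pair counts 1 site 2 times. The strongest snoRNA region after frm-7 and pxn-1 held C16D9.11 in rol-3, a receptor tyrosine kinase gene, with 32.2 pooled, 11.2 in replicate 1 and 22.5 in replicate 2. The strongest tRNA regions lay in swt-5, of the SWEET sugar transporter family (26.7 pooled, 17.4 in replicate 1, 13.1 in replicate 2), F52C9.5 (24.04 pooled, 18.2 in replicate 2) and fli-1 (22.7 pooled, 20.7 in replicate 2). The last 2 were not overlapped in replicate 1, and swt-5 ranked 77 there against 3156 in replicate 2. The small RNA gene ran in the direction of its host in 7 of 9 snoRNA cases, 5 of 6 snRNA cases and 7 of 8 tRNA cases. The regions in F58G1.7, frm-7 and pxn-1 had GC contents of 45.9, 44.7 and 39.1%, and the part of base composition in their signal was not tested.

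A list of 16 motifs was searched on both strands of every 340 bp region. CTGCGTCTC was present in 21 regions (2.31%), against 1.43% of the equally wide sequences on either side and 1.09% of intron regions after rank 5000. It was concentrated at the top: 8 of the 60 regions of ranks 1 to 500 held it (13.3%, interval 5.94 to 24.6%), against 13 of the 848 of ranks 501 to 5000 (1.53%, interval 0.82 to 2.61%). In the final set 6 of 16 held it, in Y111B2A.12, epg-9, pqn-41, Y43F8B.2, vhp-1 and hxk-1, whose pooled signals ran from 35.2 to 73.6. The other 2 of the 60 were in mdt-26, a subunit of the Mediator complex (30.4), and mec-12, an alpha-tubulin of touch receptor neurons (24.5). The centre of the match lay a median of 41 bp from the summit in these 8 (3 to 139 bp), and in the windows printed above it is 6 bp from the summit in Y111B2A.12 and 3 bp in epg-9. The motif was also present in the strongest regions of other classes, in 8.49% of promoter regions of ranks 1 to 500 (18 of 212) and 13.8% of intergenic ones (13 of 94). It was in none of the 31 exon regions or the 19 X intron regions of those ranks. Over all autosomal promoter regions of the first 5000 it was in 4.08%.

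The share of regions with the half-site AGGTCA was lowest in the 60 strongest, on a count of 3, and highest just below them. It was present in 80 regions (8.81%, interval 7.05 to 10.8%), against 5.73 and 8.48% of the left and right flanks, 6.76% of intron regions after rank 5000 and 8.42% of autosomal promoter regions. It was in 3 of 60 regions of ranks 1 to 500 (5%, interval 1.04 to 13.9%), 11.4% of ranks 501 to 1000, 9.61% of ranks 1001 to 2500 and 8.40% of ranks 2501 to 5000. Further down it was in 6.05% of ranks 5001 to 10000 and 7.07% of the rest. The interval of the 908 regions lay above the 6.76% after rank 5000 but held the shares of the right flanks and of promoter regions. The motif was in 1 of 16 regions of the final set, that of pck-1. The variant AGTTCA was in 18.5% of regions and 19.5% of those after rank 5000, and CAAAGTCCA, a site of HNF4, in 3 regions (0.33%). A missing match says only that these letters are not in the region.

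Among the other motifs of the list, GCGCGC and GAGAGAGA had higher shares in ranks 1 to 500 than in ranks 501 to 5000. The run of A had a lower share there (35.0 against 51.1%). CAGCTG was in 2 of the 60 (3.33 against 6.25%) and TGACGTCA in 0 (0 against 1.65%), counts too small to call a difference. GTAAACA (3.33 against 4.95%) and TTTCCAG (13.3 against 16.7%) were lower to a similar degree. Elsewhere in the list the difference went both ways. GAGAGAGA was in 3.08% of regions, with 1.87 and 2.86% in the flanks, 2.09% after rank 5000 and 4.02% of autosomal promoter regions, and it was in 4 of the 60 of ranks 1 to 500 (6.67%) and 3 of 16 in the final set. GCGCGC was in 3.19%, with 1.54 and 1.21% in the flanks, 1.98% after rank 5000 and 4.39% in promoter regions. It was in 6 of the 60 (10%) and 3 of 16 in the final set, against 2.71% of ranks 501 to 5000. The 6 include the overlapping pair of regions in F58G1.7, which share a match. GTAAACA, a site of forkhead factors, was in 4.85%, with 2.20 and 3.08% in the flanks, 3.21% after rank 5000 and 4.83% in promoter regions. A run of 8 A, AAAAAAAA, was in 50% of the regions and in 35.0% of ranks 1 to 500, with 43.2% in each flank, 52.2% after rank 5000 and 39.2% in promoter regions. TGATAA, the core site of GATA factors, was in 28.6%, with 27.8 and 30.7% in the flanks, 26% after rank 5000 and 28.7% in promoter regions. The E-boxes CACGTG and CAGCTG were in 6.28 and 6.06%, against 4.30 and 4.87% after rank 5000 and 5.69 and 5.88% of promoter regions. The CA repeat CACACACA was in 1.98%, against 2.26% after rank 5000 and 2.41% of promoter regions. The homeodomain core TAATTA was in 14.6%, against 17.04 and 18.4% there, and the cAMP response element TGACGTCA in 1.54%, against 1.95 and 1.92%. Letters like those of 3′ splice sites, TTTCCAG, were in 16.5%, against 17.9 and 12.6%, and letters like those of 5′ splice sites, GTAAGT, in 9.36%, against 10.7 and 11.2%.

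A scan of every octamer found in at least 4 of the 60 strongest regions (681 of 11480 octamers, each counted with its reverse complement) was made after the values had been seen. The octamer with the largest difference was AGACGCAG, the reverse complement of the first 8 letters of CTGCGTCTC, in 10 of 60 regions (16.7%) against 1.60% after rank 5000. The first octamer unrelated to it was TCTTATCA, which reads TGATAAGA on the other strand and contains the core TGATAA. TGATAAGA was in 9 of 60 regions (15%, interval 7.10 to 26.6%), in 3.30% of ranks 501 to 5000 and in 1.78% after rank 5000. Of the other classes of ranks 1 to 500 it was in 3.77% of promoter regions (8 of 212), 5.32% of intergenic regions and 1 of 19 X intron regions, and in none of the 31 exon regions. In the final set it was in 5 of 16 regions, those of epg-9, pkg-2, hxk-1, Y62E10A.13 and aakg-1, and 2 of these, epg-9 and hxk-1, held CTGCGTCTC as well. The other 4 of the 60 were a second region in Y62E10A.13 and regions in pck-2, a second phosphoenolpyruvate carboxykinase gene, cyp-13A3, a cytochrome P450, and nadk-2, an NAD kinase. It lay a median of 63 bp from the summit (2 to 127 bp). Because the octamer was picked for its difference in these regions, the shares describe them and nothing more.

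GGTTCGA, which resembles the B box of tRNA genes bound by TFIIIC, was also looked at after the values were known, among about 10 added motifs. It was in 5 of the 60 strongest regions (8.33%), in 2.36% of ranks 501 to 5000, and 2.38% after rank 5000. Of the other classes of ranks 1 to 500 it was in 2 of 19 X intron regions (10.5%), 4.26% of intergenic regions and 2.36% of promoter regions, and in none of the 31 exon regions. The 5 lay in pqn-41, frm-7, nuaf-1, mdt-26 and noah-2. Of the 22 regions with a small RNA gene 5 held it (22.7%), of which 3 were at tRNA genes and 2 at snoRNA genes, against 2.26% of the 886 without one. After rank 5000 it was in 4 of 29 intron regions with a small RNA gene (13.8%) and 2.28% of those without. Among the 60 strongest, 4 of the 5 regions with GGTTCGA held no small RNA gene.

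**Figure D5:**
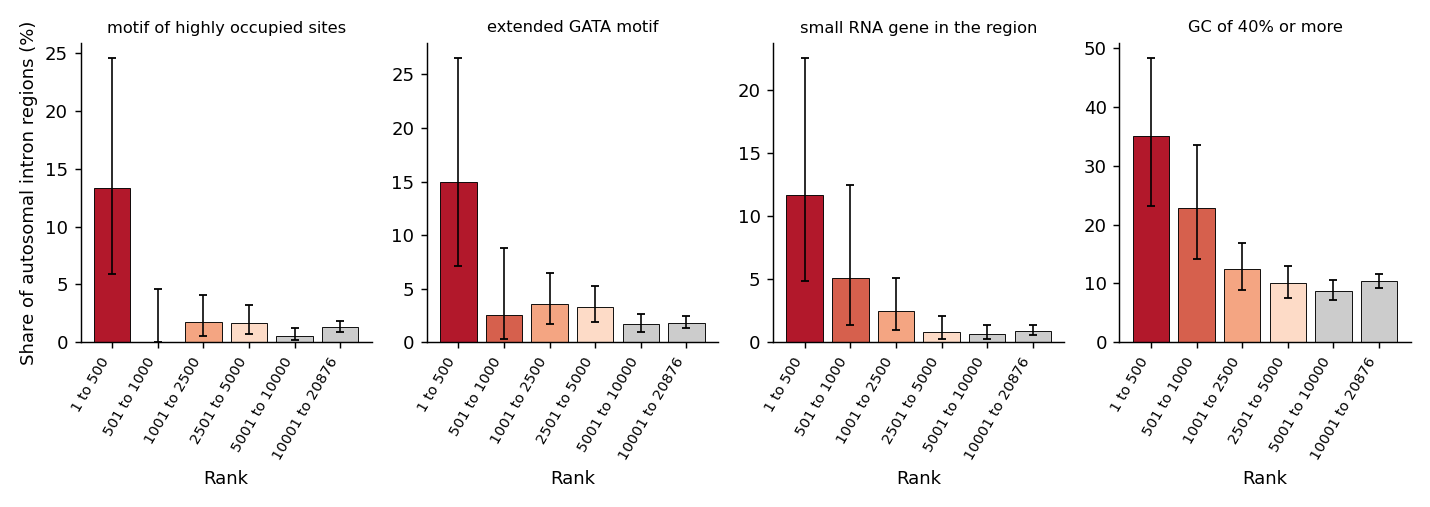
Share of autosomal intron regions (%) with CTGCGTCTC, with TGATAAGA, with a small RNA gene and with a GC content of 40% or more, by rank; bars give the shares and lines on them exact binomial 95% intervals. All 4 shares are highest in ranks 1 to 500, at 13.3, 15, 11.7 and 35.0%. TGATAAGA was picked for its high share in those ranks, so its place there follows from the choice.

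The 908 regions lay in 770 host genes, 15 of them in 2 genes at once. Counting every gene, 781 of 13413 eligible autosomal protein-coding genes (5.82%) held a region. Most hosts held 1 region (660 genes), 90 held 2 and 20 held 3 or more. The gene pqn-41 held 6, with signals of 47.1, 23.1, 22.9, 20.1, 18.5 and 16.3. The genes mnk-1, daf-5, a Sno-Ski family member of the dauer TGF-beta pathway, let-526, a subunit of the SWI/SNF chromatin remodelling complex, kcnl-1, a potassium channel, and mpz-1, a protein of many PDZ domains, held 4 each. Eligible sequence differed among them, from 5.35 kb in mnk-1 to 31.8 kb in kcnl-1. Among neighbouring regions 7 pairs overlapped each other, including pairs in F58G1.7, mnk-1, nhr-21 and pkg-2, so that their values are not separate. Neither nhr-28 itself nor unc-119, the marker gene named in the genotype, held any of the first 5000 regions, introns or otherwise.

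Host genes were set against 17 lists of gene names, with density per Mb of eligible intron as the measure and 45.1 per Mb over all genes beside it. Signalling genes of the Wnt, Notch, TGF-beta, EGF and insulin pathways held 13 regions in 9 of 48 genes, or 62.02 per Mb, led by daf-5 (30.3) and lit-1, a Nemo-like kinase of Wnt signalling (24.9 and 24.2). Axon guidance and adhesion genes held 21 regions in 14 of 42 genes (54.6 per Mb), led by mig-10 (22.3), nrx-1 (21.7) and ptp-3 (19.02). At the overall density the same sequence would hold 9.46 and 17.4 regions. Intron regions ranked after 5000 had 229 per Mb in the signalling genes and 161 in the guidance genes, against 173 over all genes. By the share of genes with a region, 18.8 and 33.3% against 5.82% of all eligible genes, both lists stood higher than by density.

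Nuclear hormone receptor genes, the family of the tagged protein, held 13 regions in 11 of 239 eligible genes (54.3 per Mb). The strongest were in nhr-66 (23.97 pooled, 9.37 in replicate 1, 16.4 in replicate 2), nhr-31 (21.8 pooled, 15.1 in replicate 2, none in replicate 1) and nhr-21 (20.6 pooled, 5.68 in replicate 1, 20.5 in replicate 2). By the share of genes, 4.60%, this list was below the 5.82% of all eligible genes, so its place depends on the measure. Other transcription factors held 13 regions (52.5 per Mb), led by skn-1, a regulator of oxidative stress responses (20.3), ztf-11 (18.7) and hlh-30 (18.4). Homeobox genes held 4 (32.3 per Mb), led by ceh-16 (18.3), ttx-1 (17.02) and ceh-34 (16.6).

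Ion channel and neurotransmitter receptor genes held 26 regions in 24 of 230 genes (36.4 per Mb), led by itr-1, the inositol trisphosphate receptor (26.9), cng-3 (25.3) and ncx-7 (20.95). Synaptic release genes held 9 (48.7 per Mb), led by syd-1 (17.8), unc-73 (17.5) and unc-13 (17.3). Chemoreceptor genes held 16 regions in 16 of 1195 genes (23.5 per Mb), led by sre-8 (19.1), sru-21 (19.1) and srh-2 (18.9), the lowest density of the lists with 10 or more regions. Splicing and RNA-binding genes held 5 (37.7 per Mb), led by msi-1 (20.8), rbm-34 (18.7) and asd-2 (18.4). Collagen genes held 5 in 0.0433 Mb of eligible sequence (116 per Mb), led by col-113 (17.6), col-99 (17.3) and cle-1 (17.2), and ribosomal protein genes held 1, in rpl-42 (19.8).

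Tissue marker lists held little eligible sequence. Body muscle markers held 4 regions in 3 of 8 genes (67.8 per Mb in 0.059 Mb), in unc-22, a giant kinase of the sarcomere (19.3), unc-89 (18.5 for the stronger of 2) and ttn-1 (18.5). Intestine markers held 1 in 0.0052 Mb (ges-1, 16.2), neuron markers 1 in 0.052 Mb (unc-13, 19.2 per Mb), and hypodermis, pharynx and germline markers none, in 0.0150, 0.0059 and 0.0039 Mb of eligible sequence. None of the 17 lists had a region in the final set, which kept only 16 of all 908 intron regions (1.76%).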

How the data were processed

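Per the labels, 2 biological replicates were measured; library fragments were 150 to 350 bp. Per the deposited file lists, regions were called against a control, on each replicate and on both pooled, and a filter on the irreproducible discovery rate left the final set, on build ce11; caller and thresholds: not given in the sources used here. The authors deposited a signal per region, with no stated scale, and a −log10 q-value. Replicate lists held 30000 regions each, 350 bp wide in replicate 1 and 340 bp in replicate 2; 16 regions of replicate 1 were mitochondrial. Depth is unknown.

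Here regions were ranked by pooled signal and summits placed on Ensembl release 115 with Python 3.11.15, numpy 2.4.6, pandas 2.3.3 and scipy 1.17.1. A TSS was the start of any protein-coding transcript; with starts of genes only, there were 1087 members. Overlap meant at least 1 bp. Sequence was RefSeq WBcel235. Intervals are exact binomial (Clopper-Pearson); those of medians come from order statistics. With 1 group and members chosen by signal, no test was run. In a check with known answers, the scripts classed 600 of 600 random genome positions rightly. They also called 1 motif rightly as present or absent in 200 of 200 simulated sequences, only some of which held it. Apart from the planted motif these sequences were made of A and T only, so false matches were not tested.

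The members, gene lists and motifs were chosen with earlier results of these data known. Named are the 12 strongest members, those in the final set, the hosts with the most members, the strongest 3 per gene list and per class of small RNA gene, the 3 on each side of rank 5000, and members holding the motifs described, the last chosen after their values were seen. The closing part gives alternative list lengths, promoter windows, overlap rules, replicates left out, and GC and motif references. Coordinates of the other build were not used here.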

Additional observations from a re-analysis of the deposited data

How the results depend on the processing

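A recomputed count was called unmoved within 1.5 times its main value, and a share or median within the 95% interval of its main value, a narrower limit. Of the 61 recomputed values of the 5 main results, 42 were unmoved, but some of these could not move. The pooled list had no ties, so reversing the order of ties changed nothing. Leaving out nhr-28 and unc-119 removed no region. The final set lay within the first 162 ranks, so other list lengths could not change its count. With the first 2500 and the first 10000 regions, the intron regions numbered 420 and 1983, the intron share was 21.2 and 24.6%, and the share found in both replicates 70.2 and 48.9%. A promoter window of 500 bp upstream to 200 bp downstream gave a share of 28.6%, one of 2000 to 500 bp gave 18.7% and 10 regions in the final set, and starts of genes alone as TSS, an alternative chosen after seeing the data, gave 27.03%. Using the list of 1 replicate alone, the number ran from 857 to 954, the share from 21.2 to 23.7%, the median GC content from 31.5 to 33.7% and the final set from 15 to 18. The share found in both replicates was 41.5% for summits within 100 bp, 53.1% for an overlap of at least 50% of the region and 9.80% for the 5000 strongest of each list. The median GC content was 30% in the central 100 bp and 31.2% without regions holding exonic bases, also chosen after seeing the data. The 81 strongest final peaks held 6 intron regions. AAAAAAAA was 6.83 points above the flanks but -2.18 points against lower-ranked intron regions. Against the share of genes in place of density per Mb, the ratio to all genes went from 1.203 to 0.79 for nuclear hormone receptors, 0.81 to 1.79 for ion channels, 2.56 to 0.95 for collagens and 0.84 to 1.43 for splicing genes, where density divides by intron length and the share of genes does not. By the same change it went from 1.37 to 3.22 for signalling genes and from 1.21 to 5.72 for axon guidance and adhesion genes. Of the other 41 values, which include these ratios and the motif shares, 28 were unmoved. No paired analysis was possible because there was 1 group and no test.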

Other observations

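Some intron regions held very different ranks in the 2 replicates or in the pooled list; they were picked after their values were seen. In lin-42, the period-related gene of developmental timing, a region that holds CTGCGTCTC 2 times had a signal of 16.8 in replicate 1 (rank 85), was not overlapped in replicate 2 and had 19.6 in the pooled list (rank 1588). A region over rpr-1, the RNA of ribonuclease P, in the host ints-8 ranked 307 in replicate 1 (13.04) and 18013 in replicate 2 (8.11). In the other direction, the region in mdt-26 ranked 109 in replicate 2 (25.7) and was not overlapped in replicate 1, with 30.4 in the pooled list. The region in skn-1 ranked 124 in replicate 2 (24.7) and 863 in replicate 1 (10.9), but 1306 in the pooled list. A region in nhr-21, at rank 3058 of the pooled list, ranked 179 in replicate 1 (14.4) and was not overlapped in replicate 2.

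Regions over other annotated RNA genes were more common than those over small RNA genes. Genes annotated as ncRNA were overlapped by 35 regions (3.85%) against 2.78% of intron regions after rank 5000, and piRNA genes by 41 (4.52%) against 4.47%. Antisense RNA genes were overlapped by 5 (0.55%, interval 0.18 to 1.28%), against 0.17% of intron regions after rank 5000. The 5 lay in vhp-1, nhr-66, let-526, nhr-34 and pept-3.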
